A study of Mus musculus with 8 samples.

Results

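Macrophages and osteoclasts are myeloid cells, and in a bulk library of the tooth they are visible only through the transcripts they add. This set holds 36 genes, chosen by name, of the 20926 in the table of expression values: 22 genes of macrophages and antigen presentation, 11 genes of osteoclasts, and the 3 mesenchymal signals Csf1, Tnfsf11 and Tnfrsf11b. The values came from RNA-seq of molars at postnatal (PN) day 3, after the tooth epithelium had been removed. A group of 4 control libraries came from Ezh2fl/fl mice and a group of 4 libraries, called mutant here, from Osr2-Cre;Ezh2fl/fl mice, so that both groups carried the floxed Ezh2 allele. Cre came from an Osr2 knock-in allele (Osr2KI-Cre), so that deletion was directed at mesenchymal cells, those of the nearby jaw bone included, and Ezh2 is the methyltransferase of the Polycomb repressive complex. The labels give the strain as C57BL/6, whereas the study describes a mixed background with mice of either sex. The labels number the samples but do not say whether each is 1 animal or a pool, so the p-values measure the spread between these libraries only.

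Osteoclasts arise when monocytes and macrophages, kept alive by Csf1 acting on its receptor Csf1r, receive the signal of Tnfsf11 (RANKL) through Tnfrsf11a (RANK). Tnfrsf11b (osteoprotegerin) is a soluble decoy that binds Tnfsf11, so the balance of ligand and decoy helps to set how many precursors fuse into bone-resorbing cells. Around a developing tooth, osteoclasts open the bony crypt so that the tooth can grow and erupt, while resident macrophages clear debris. The ligands and the decoy are made mainly by mesenchymal and bone-forming cells, and the other members mainly by cells of the blood lineage.

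Each value is a read level normalised by the authors, and its 75th percentile was about 38.5 in every library. Estimated depth was 48.3 to 68.8 M reads per library, and each read added 0.0129 to 0.0190 to a value, depending on the library. Ezh2 itself, the targeted gene, was at 38.3 to 55.0 in control and 23.2 to 36.01 in mutant libraries, a log2 fold change of -0.46 (SE 0.16, adjusted p = 0.235) without overlap of the groups. Keratin 14, an epithelial gene, was at 329 to 938 in control and 365 to 637 in mutant libraries, and the summed enamel and epithelial markers were at 2220.2 to 31754 in control and 2202 to 13320.2 in mutant libraries, so that transcripts of the tooth epithelium were present in all 8 libraries. The summed markers of dental mesenchyme and odontoblasts were at 2331 to 3658 in control and 1482 to 3026 in mutant libraries, and without the odontoblast gene Dspp, left out after the data were seen, at 806 to 1002 and 698 to 926. The leukocyte marker Ptprc (CD45) and the macrophage marker Adgre1 (F4/80) were measured in every library, at 6.61 to 12.3 and 7.69 to 15.7. Ctsk and Acp5, taken here as osteoclast genes, were never below 95.9 and 31.7, and which cells their reads came from was not tested.

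Per kilobase of merged exon length, the scale on which genes can be set against each other, the bone collagen protease Ctsk was the most abundant member with a mean level over the 8 libraries of 151 per kilobase. The osteoclast phosphatase Acp5 (TRAP) followed at 61.3 per kilobase, and the complement subunits C1qb and C1qa stood at 29.4 and 29.2 per kilobase. The RANK receptor Tnfrsf11a stood at 0.643 per kilobase, and the lowest member was the calcitonin receptor Calcr, which osteoclasts carry, at 0.0693 per kilobase. Calcr and the class II chain H2-Aa did not reach a value of 1 in at least 4 libraries, and the other 34 members were tested together with all 14854 genes that did.

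The difference between the groups was tested with limma on log2(value + 1), and all fold changes below are mutant minus control on that scale, which understates the change of low genes. Of the 34 members tested, 1 was called higher in mutant libraries at an adjusted p under 0.05 (the class II chain H2-Ab1) and 0 were called lower. Among all genes tested, 1.56% were called higher and 0.512% lower, which is 2.07% in either direction. At an unadjusted p under 0.05, 2 members were higher (H2-Ab1 and the scavenger receptor Cd163) and 0 lower, beside 8.27% and 4.87% of all genes (13.1% in either direction). The control and mutant values of these 2 members did not overlap, which was so for 5.76% of all genes in this direction, and 0 members were separated in the other direction, beside 2.77% (8.53% of all genes in either direction). The number of members at an unadjusted p under 0.05 depended on single libraries, rising to 6 without control 2 or without mutant 4 and to 5 without mutant 3 or without control 1. All of these were higher in mutant libraries except Tnfsf11, which was lower without control 1. In a bulk library, more cells of a type and more RNA per cell cannot be told apart.

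As a description with no test of its own, the signs of the fold changes were counted by cell type. Of the 21 macrophage genes tested, 19 had a fold change above 0 and 2 below it, with a median of 0.25, and this median lay between 0.11 (without mutant 1) and 0.32 (without control 2) in the 16 alternative analyses, and at 0.15 without control 4. Of the 10 osteoclast genes tested, 2 had a fold change above 0 and 8 below it, with a median of -0.16. That median changed sign without control 2 (0.14), without mutant 2 (0.09), without mutant 4 (0.05) and with an enamel covariate (0.20). Over all genes tested the median was 0.01, with 54.1% of them above 0.

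**Figure D1:**
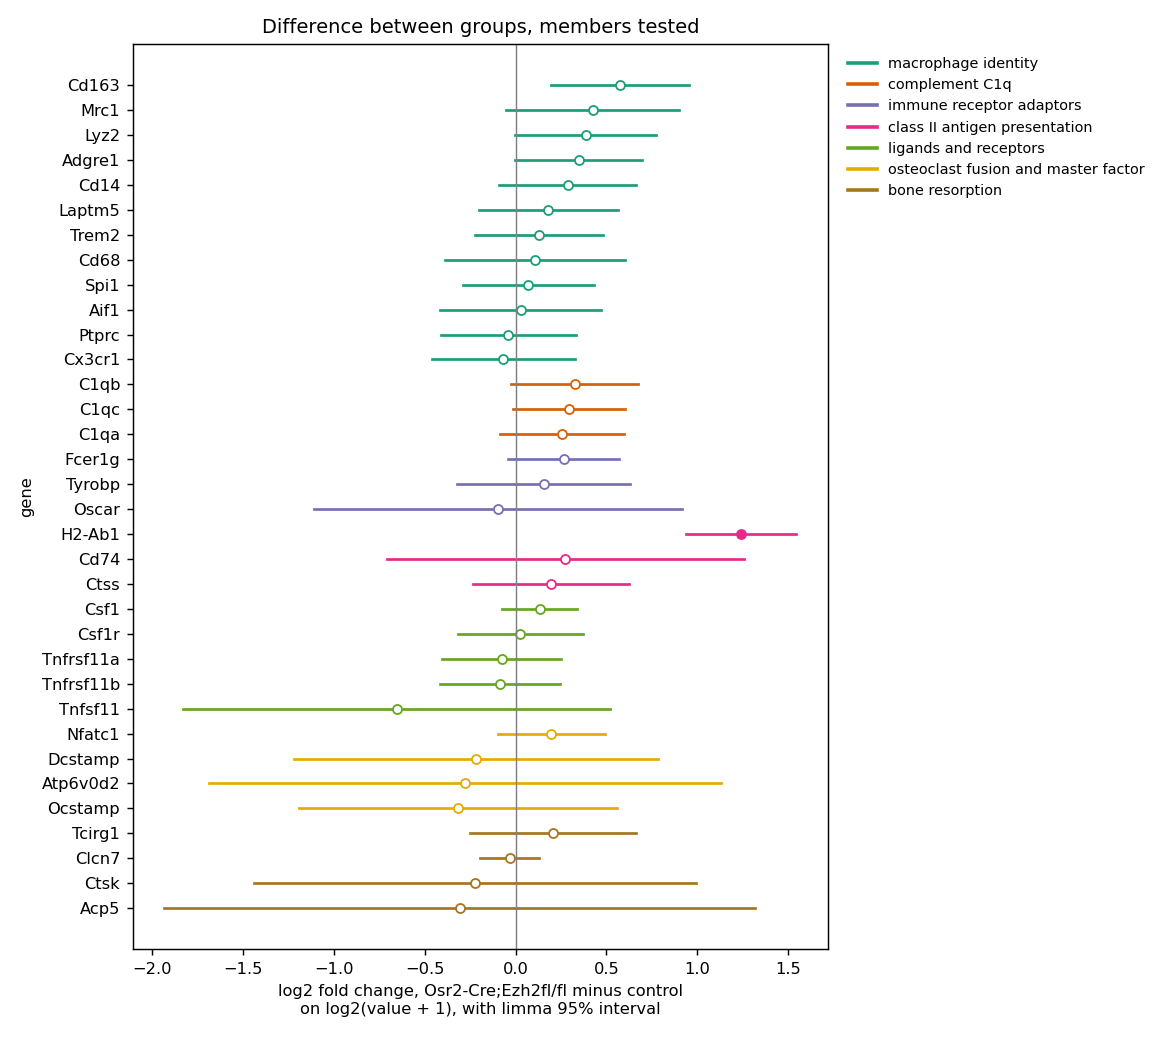
Log2 fold change (mutant minus control, on log2(value + 1)) of the 34 members tested, by gene and coloured by role, with 95% intervals from limma as horizontal lines. The filled point, H2-Ab1 at 1.24, is the only member called at an adjusted p under 0.05, and the widest intervals are those of Acp5, Atp6v0d2, Ctsk and Tnfsf11.

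Among ligands and receptors, 0 of the 5 members tested were called by limma at an adjusted p under 0.05, and 0 at an unadjusted one. Csf1, the survival factor of macrophages and their precursors, was at 32.1, 34.6, 27.7 and 29.7 in controls 1 to 4 and 32.5, 37.2, 35.7 and 30.9 in mutants 1 to 4. The groups overlapped, and the fold change was 0.13 (SE 0.09, 95% interval -0.07 to 0.34, adjusted p = 0.646). Its receptor Csf1r was at 53.8, 81.2, 53.1 and 45.4 in controls 1 to 4 and 56.5, 55.6, 63.2 and 57.4 in mutants 1 to 4, with control 2 above the other 7 libraries and a fold change of 0.03 (SE 0.15, 95% interval -0.32 to 0.37, adjusted p = 0.973).

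Tnfsf11 (RANKL) was at 0.573, 9.29, 2.15 and 2.58 in controls 1 to 4 and 2.54, 0.394, 2.33 and 0.813 in mutants 1 to 4. Control 2 was the highest library and mutant 2 the lowest, a ratio of 23.6, and the control libraries spanned nearly the whole of that range by themselves. In estimated reads the level ran from 25 to 692. The fold change was -0.65 (SE 0.52, 95% interval -1.83 to 0.52, adjusted p = 0.716), and an exact two-sided permutation test over the 70 arrangements of the libraries gave p = 0.400. Without control 2 the fold change was -0.16 and without control 1 it was -1.06, so the size of the difference rested on which library was kept.

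The decoy Tnfrsf11b was at 17.4, 23.1, 21.3 and 20.95 in controls 1 to 4 and 21.2, 14.1, 22.9 and 20.4 in mutants 1 to 4. Its values stayed within a ratio of 1.64 between the highest and the lowest library, and the fold change was -0.09 (SE 0.15, 95% interval -0.42 to 0.25, adjusted p = 0.903). The receptor Tnfrsf11a was at 3.37, 5.12, 4.11 and 3.32 in controls 1 to 4 and 4.36, 3.46, 4.10 and 2.93 in mutants 1 to 4, with overlapping groups and a fold change of -0.08 (SE 0.15, 95% interval -0.40 to 0.25, adjusted p = 0.916). Calcr was at 0.139, 0.308, 0.224 and 0.138 in controls 1 to 4 and 0.550, 0.152, 0.453 and 0.206 in mutants 1 to 4, the 2 highest values being mutant 1 and mutant 3, and its 7 to 31 estimated reads per library gave little precision (exact permutation p = 0.286).

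As a share of the decoy, on the deposited values, Tnfsf11 amounted to 3.29, 40.2, 10.1 and 12.3% in controls 1 to 4 and to 12.01, 2.79, 10.2 and 3.99% in mutants 1 to 4. The balance was tipped furthest towards the ligand in control 2, while mutant 2, control 1 and mutant 4 had the lowest shares, so that both groups held high and low libraries. The log2 ratio of ligand to decoy, with 1 added to each value, was -2.55 ± 0.970 (SD, n = 4) in control and -3.12 ± 0.446 (SD, n = 4) in mutant libraries. The difference of -0.57 did not pass an exact two-sided permutation test (p = 0.343, where the smallest p this design allows is 0.0286). Without control 2 the difference shrank to -0.13 (exact permutation p = 0.714). Leaving out any other single library gave differences of -0.90 to -0.42.

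**Figure D2:**
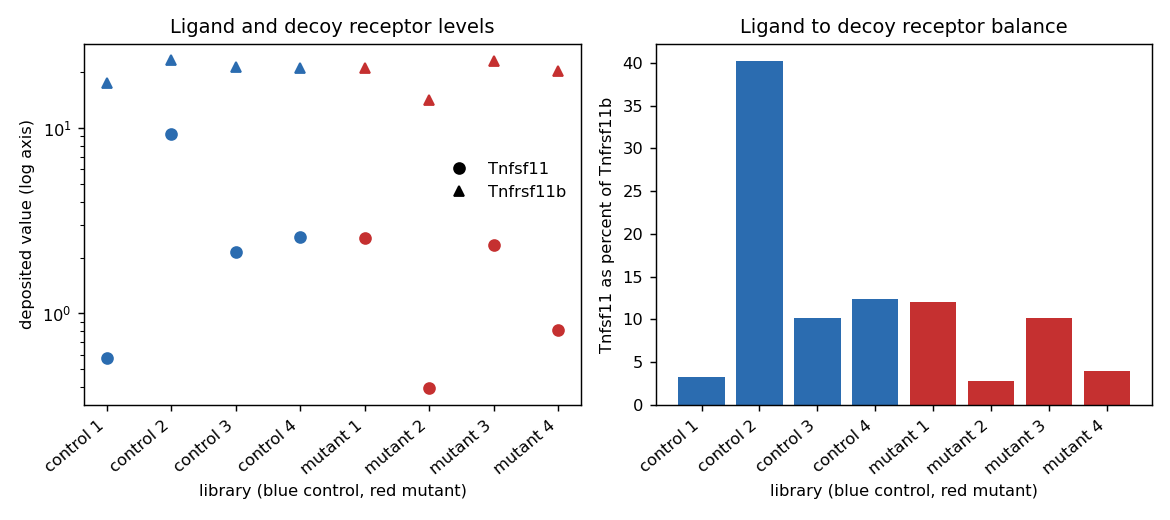
Left, the deposited values of Tnfsf11 (circles) and Tnfrsf11b (triangles) in each library on a log axis; right, Tnfsf11 as a percentage of Tnfrsf11b, with control libraries in blue and mutant libraries in red. Tnfrsf11b stays between 14.1 and 23.1 while the percentage runs from 2.79 in mutant 2 to 40.2 in control 2.

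Most osteoclast genes varied widely between libraries of the same group. The residual SD, which is the spread of log2(value + 1) within the groups, had a median of 0.73 over the 10 osteoclast genes tested, beside 0.15 over all genes, and 6 of the 10 lay above the 95th percentile of all genes (0.40). Limma called 0 of the 10 at an adjusted p under 0.05 (adjusted p of 0.623 to 0.966) and 0 at an unadjusted one, which became 1 (Nfatc1, higher) without control 2. Ctsk was at 108, 439, 164 and 246 in controls 1 to 4 and 273, 95.9, 404 and 97.5 in mutants 1 to 4. Control 2 and mutant 3 were the highest libraries, and mutant 2, mutant 4 and control 1 the lowest. Its mean was 239 ± 144 (SD, n = 4) in control and 218 ± 149.7 (SD, n = 4) in mutant libraries, and its fold change was -0.22 (SE 0.54, 95% interval -1.44 to 0.99, adjusted p = 0.935).

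Acp5 ran through the same order of libraries, at 42.4, 276, 78.1 and 129 in controls 1 to 4 and 157, 31.7, 240.5 and 41.1 in mutants 1 to 4. Both groups thus held libraries with high and with low levels, and the fold change was -0.31 (SE 0.72, 95% interval -1.93 to 1.32, adjusted p = 0.931). With 1 library left out, the fold change ran from -0.81 (without mutant 3) to 0.16 (without control 2) for Acp5 and from -0.61 to 0.13 for Ctsk, and both lay above 0 without control 2, mutant 2 or mutant 4. The interval is wide on both sides of 0, so these 4 against 4 libraries could not show a moderate difference in either direction. Nfatc1, the master transcription factor of osteoclast formation, which other cells of the tooth also use, was steadier, at 17.3, 25.3, 17.1 and 17.5 in controls 1 to 4 and 21.2, 24.4, 22.7 and 19.9 in mutants 1 to 4. Control 2 and mutant 2 were its highest libraries, and the fold change was 0.20 (SE 0.13, 95% interval -0.10 to 0.49, adjusted p = 0.623).

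Dcstamp and Ocstamp, membrane proteins needed for precursor fusion, were at 0.556 to 4.71 in control and 0.439 to 2.96 in mutant libraries and at 1.09 to 5.62 in control and 0.637 to 2.56 in mutant libraries respectively. Atp6v0d2, a proton pump subunit with a part in fusion, was at 2.95 to 16.02 in control and 2.08 to 17.3 in mutant libraries. Oscar, an osteoclast receptor that signals through Fcer1g, was at 1.04 to 4.59 in control and 0.652 to 5.04 in mutant libraries. The groups overlapped for each of the 4, with log2 fold changes of -0.22 (adjusted p = 0.920), -0.32 (adjusted p = 0.849), -0.28 (adjusted p = 0.927) and -0.10 (adjusted p = 0.966). The acid secretion genes Tcirg1, a proton pump subunit, and Clcn7, a chloride transporter of lysosomes and of the resorbing membrane, are also used outside osteoclasts. Tcirg1 was at 25.2 to 39.9 in control and 26.2 to 46.6 in mutant libraries with a fold change of 0.21 (adjusted p = 0.793). Clcn7 was the steadiest member, at 29.5 to 35.2 in control and 30.00 to 32.5 in mutant libraries, and its 95% interval of -0.20 to 0.13 leaves room for a small difference only.

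Promoter sequences are shown for the members whose residual SD lay above the 99th percentile of all genes, because these genes moved most between libraries. There were 7 such members, Oscar, Cd74, Tnfsf11, Dcstamp, Atp6v0d2, Acp5 and Ctsk, and 4 of them have an entry in the RefSeq promoter table on GRCm38.p6, which holds 23 of the 36 members. The sequences are the 250 bases before the annotated start, written 5′ to 3′ on the strand of the gene, with capitals for matches to 4 motifs on either strand: the PU.1 core GAGGAA, the NFAT core GGAAAA, the AP-1 site TGANTCA and the MITF E-box CACGTG. They lie at chr7:3616158-3616407, minus strand for Oscar, at chr9:22135747-22135996, minus strand for Acp5, at chr3:95498960-95499209, plus strand for Ctsk and at chr14:78308044-78308293, minus strand for Tnfsf11.
Oscar: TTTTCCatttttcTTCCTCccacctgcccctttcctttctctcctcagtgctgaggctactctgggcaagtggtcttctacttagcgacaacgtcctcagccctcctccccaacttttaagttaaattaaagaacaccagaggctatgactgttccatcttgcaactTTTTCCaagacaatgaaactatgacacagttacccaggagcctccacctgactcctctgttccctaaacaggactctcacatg
Acp5: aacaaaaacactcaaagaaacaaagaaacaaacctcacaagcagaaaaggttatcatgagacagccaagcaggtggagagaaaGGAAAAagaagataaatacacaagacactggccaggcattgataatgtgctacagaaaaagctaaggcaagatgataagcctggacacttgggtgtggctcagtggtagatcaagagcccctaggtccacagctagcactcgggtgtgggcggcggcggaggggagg
Ctsk: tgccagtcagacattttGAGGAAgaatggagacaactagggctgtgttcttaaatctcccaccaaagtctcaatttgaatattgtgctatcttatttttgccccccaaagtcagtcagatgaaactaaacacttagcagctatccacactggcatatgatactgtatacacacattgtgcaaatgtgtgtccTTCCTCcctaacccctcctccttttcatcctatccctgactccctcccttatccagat
Tnfsf11: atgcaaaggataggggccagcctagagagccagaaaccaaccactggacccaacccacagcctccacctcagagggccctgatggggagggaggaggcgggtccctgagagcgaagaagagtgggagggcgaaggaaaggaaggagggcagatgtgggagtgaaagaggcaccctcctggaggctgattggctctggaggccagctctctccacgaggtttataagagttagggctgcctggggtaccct
PU.1 and NFAT are transcription factors of the myeloid and osteoclast lineages, AP-1 contains Fos, and MITF drives lysosomal and osteoclast genes. The Oscar window held 1 PU.1 core and 2 NFAT cores, the Ctsk window 2 PU.1 cores, the Acp5 window 1 NFAT core, and the Tnfsf11 window no match. Of the 32851 promoter windows in the table, 23.3% held the PU.1 core, 20.4% the NFAT core, 6.75% the AP-1 site and 6.02% the E-box. Among the 23 members with an entry, the PU.1 core was present in 12, the NFAT core in 8, the AP-1 site in 2 (Cd68 and Trem2) and the E-box in 1 (Clcn7). A member with several windows, such as Acp5 with 3, was counted if any of them matched. The counts are thus per gene and the shares per window, and they are not on the same scale. A match of these letters is a description of the sequence and not a binding site.

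Ctsk, Acp5 and Ocstamp ranked the 8 libraries identically, in the order control 2, mutant 3, mutant 1, control 4, control 3, control 1, mutant 4 and mutant 2. Oscar and Atp6v0d2 differed from this order only by an exchange of the 2 highest libraries, and Dcstamp by an exchange of the 2 lowest. The same 3 highest and 3 lowest libraries were found for 6 of the 10 osteoclast genes tested (60.0%) and for 176 of the 14854 genes tested (1.18%). The rank was seen in these members first, so these shares are a description. Tnfsf11 had a related but different order, in which control 2 and control 4 led, mutant 1 and mutant 3 came next, and control 1 and mutant 2 were lowest. Control 2 was among the 3 highest libraries for all 11 osteoclast genes.

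**Figure D3:**
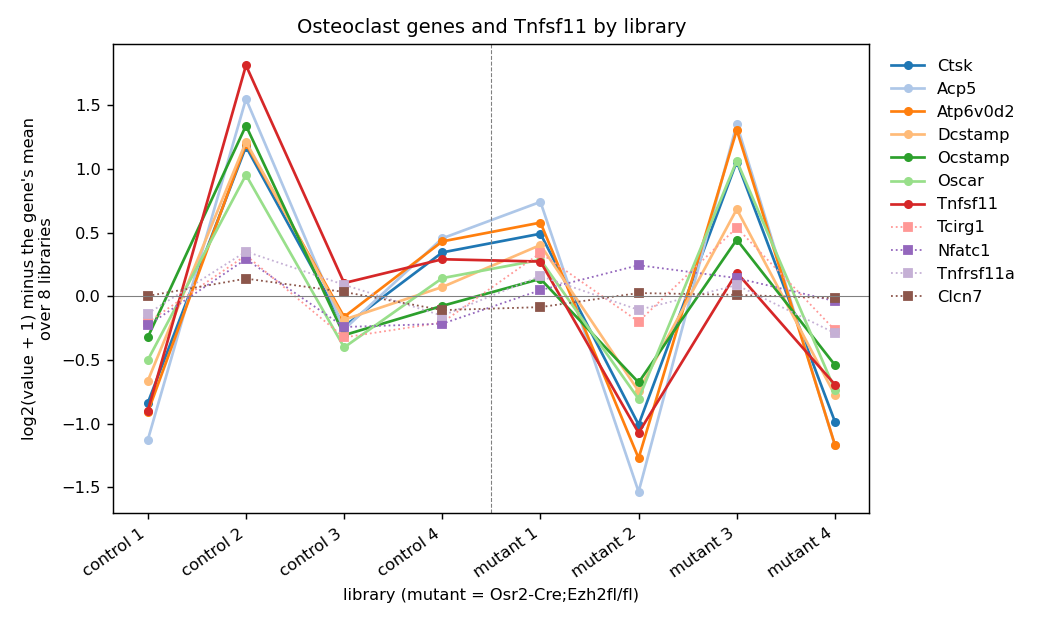
Log2(value + 1) of 10 osteoclast genes and Tnfsf11 in each of the 8 libraries, as the difference from the mean of each gene over the libraries, with a line joining the values of 1 gene (solid for the 7 most variable). The solid lines lie above 0 in control 2, mutant 1 and mutant 3 and below 0 in control 1, mutant 2 and mutant 4, so that each group has libraries on both sides.

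Markers of other cells moved with this order to different degrees. The summed mast cell markers were highest in control 2 (8.21) and mutant 1 (7.52) and lowest in control 1 (1.09), mutant 4 (1.29) and mutant 2 (1.38). The erythroid membrane transporter Slc4a1, named after its values were seen, was at 0.452, 5.54, 0.550 and 3.49 in controls 1 to 4 and 1.10, 0.409, 3.71 and 0.323 in mutants 1 to 4, with the same 3 lowest libraries as Ctsk and with control 2, mutant 3 and control 4 highest. The summed erythroid markers ran otherwise, at 433, 457, 285 and 259 in controls 1 to 4 and 303, 434, 699 and 366 in mutants 1 to 4. Control 1 and mutant 2 thus lay above control 3, control 4 and mutant 1 in this sum, with mutant 3 and control 2 highest. The summed neutrophil markers were highest in mutant 1 (35.3) and mutant 3 (25.1) and lowest in mutant 4 (7.67). Bglap, the osteocalcin of bone-forming cells and named here after its values were seen, was at 52.5, 95.3, 90.7 and 77.6 in controls 1 to 4 and 72.2, 35.4, 112 and 40.4 in mutants 1 to 4, lowest in mutant 2 and mutant 4. The summed bone-forming markers, by contrast, were at 1287 to 1467 in control and 1543 to 2001 in mutant libraries, without overlap, but without Ibsp, a gene chosen for removal after the data were seen, they were at 1179 to 1327 in control and 1106 to 1502 in mutant libraries, which overlap. Within the list Phex had a fold change of -0.98 (adjusted p = 0.1003, and 0.0204 without mutant 3) and Bglap2 one of -0.37 (adjusted p = 0.503), both below 0. Above 0 were Runx2, at 0.41 (adjusted p = 0.0678, and 0.0416 without control 2), and Sost, at 0.82 (adjusted p = 0.125), whose groups did not overlap. The summed enamel and epithelial markers were lowest in the same 3 libraries as Ctsk, at 2202 in mutant 4, 2220.2 in control 1 and 2297 in mutant 2. Their 3 highest libraries were control 4 (31754), control 3 (18289.8) and mutant 3 (13320.2), of which only mutant 3 was also among the 3 highest for Ctsk. No gene of these lists was at or under 3 estimated reads in all libraries. With the enamel covariate the fold changes of Ctsk and Acp5 were 0.22 and 0.29, above 0 and not called, and the part of the mast, erythroid, neutrophil and bone-forming cells in the osteoclast levels was not tested.

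Of 99 genes tested in the other lists, 4 had the same 3 highest and 3 lowest libraries as Ctsk (4.04%), among them Mmp9, the myeloid chemokine Ccl9 and the class II gene H2-Eb1. Mmp9, a matrix protease of osteoclasts and the most abundant per kilobase of 22 other osteoclast and RANK pathway genes (49.4 per kilobase), was at 70.7, 449, 121 and 169.8 in controls 1 to 4 and 195, 80.8, 256 and 54.5 in mutants 1 to 4. Its fold change was -0.39 (adjusted p = 0.888). Of the 21 of these genes tested, 1 rose and 1 fell at an adjusted p under 0.05, beside 1.56% and 0.512% of all genes. Pth1r, the receptor for parathyroid hormone on bone-forming cells, rose from 43.5 ± 3.57 to 61.5 ± 3.95 (SD, n = 4 each), a log2 fold change of 0.49 (SE 0.08, 95% interval 0.31 to 0.67, adjusted p = 0.0133), and the call was lost without control 3 (adjusted p = 0.0666) and without mutant 4 (adjusted p = 0.0547). Car2, a carbonic anhydrase that supplies protons for resorption and is also made by other cells, fell from 121 ± 9.99 to 73.9 ± 11.7, a log2 fold change of -0.72 (SE 0.12, 95% interval -0.99 to -0.45, adjusted p = 0.0164), and lost its call without control 2 (adjusted p = 0.0574) or control 3 (adjusted p = 0.0666). Neither Car2 nor Pth1r followed the order of libraries of Ctsk. The median fold change of the 21 genes was -0.09.

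In the macrophage group, Cd163, a scavenger receptor of tissue-resident macrophages that takes up haemoglobin complexes, was at 3.30, 2.98, 2.75 and 2.32 in controls 1 to 4 and 3.96, 7.07, 3.76 and 4.50 in mutants 1 to 4. Each mutant value lay above each control value, and mutant 2 was the highest. The fold change was 0.57 (SE 0.17, 95% interval 0.19 to 0.96, adjusted p = 0.148), with an unadjusted p of 0.00759 in limma, so it did not pass the adjustment over all genes. An exact permutation test gave p = 0.0286, the smallest this design allows. Its adjusted p ran from 0.128 to 0.379 over the alternatives.

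Mrc1 (CD206), the mannose receptor of resident macrophages and the member with the highest value in this role, was at 63.9, 51.9, 48.4 and 35.4 in controls 1 to 4 and 53.8, 87.3, 51.1 and 78.6 in mutants 1 to 4. Mutant 2 and mutant 4 were highest and control 4 lowest, but control 1 lay above mutant 1 and mutant 3, and the fold change was 0.43 (SE 0.21, 95% interval -0.05 to 0.90, adjusted p = 0.456). Lyz2, the lysozyme of macrophages and neutrophils, had a fold change of 0.39 (adjusted p = 0.382), and Adgre1 one of 0.35 (adjusted p = 0.383). Without control 4, the library with the highest enamel sum, the fold changes of Mrc1 and Adgre1 were 0.27 and 0.20, and with the enamel covariate both were 0.17. That of Lyz2 was 0.22 without mutant 1. The lipopolysaccharide co-receptor Cd14 was at 1.95 to 2.60 in control and 2.26 to 4.17 in mutant libraries. The remaining 7 genes of macrophage identity had log2 fold changes between -0.07 for the fractalkine receptor Cx3cr1 and 0.18 for the lysosomal protein Laptm5, none of them called. They included the pan-leukocyte phosphatase Ptprc (-0.04), the lysosomal glycoprotein Cd68 (0.11), the actin-binding Aif1 (0.03), the myeloid transcription factor Spi1, which encodes PU.1 (0.07), and the lipid receptor Trem2 (0.13).

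The 3 subunits of complement C1q, which resident macrophages secrete, were each highest in mutant 1 and lowest in control 4. C1qb was at 28.5, 31.8, 27.3 and 24.2 in controls 1 to 4 and 49.2, 31.2, 34.03 and 29.1 in mutants 1 to 4, with mutant 1 far above the other 7 libraries. The 3 log2 fold changes were 0.25 (adjusted p = 0.566) for C1qa, 0.33 (adjusted p = 0.431) for C1qb and 0.29 (adjusted p = 0.413) for C1qc, which became 0.12, 0.17 and 0.18 without mutant 1, and 0 were called by limma at an adjusted or an unadjusted p under 0.05. Of the signalling adaptors that couple immune receptors to kinases, Fcer1g was at 13.4, 15.8, 12.1 and 11.8 in controls 1 to 4 and 20.5, 14.2, 16.2 and 14.00 in mutants 1 to 4, with overlapping groups and a fold change of 0.26 (SE 0.14, 95% interval -0.04 to 0.57, adjusted p = 0.476), or 0.15 without mutant 1. Tyrobp (DAP12), the adaptor of Trem2, was at 10.5 to 18.9 in control and 11.5 to 18.7 in mutant libraries with a fold change of 0.15 (adjusted p = 0.868). Among the 22 macrophage genes, mutant 1 was the highest library for 12 and control 4 the lowest for 13, whereas among the 11 osteoclast genes control 2 was highest for 7 and mutant 2 lowest for 5.

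**Figure D4:**
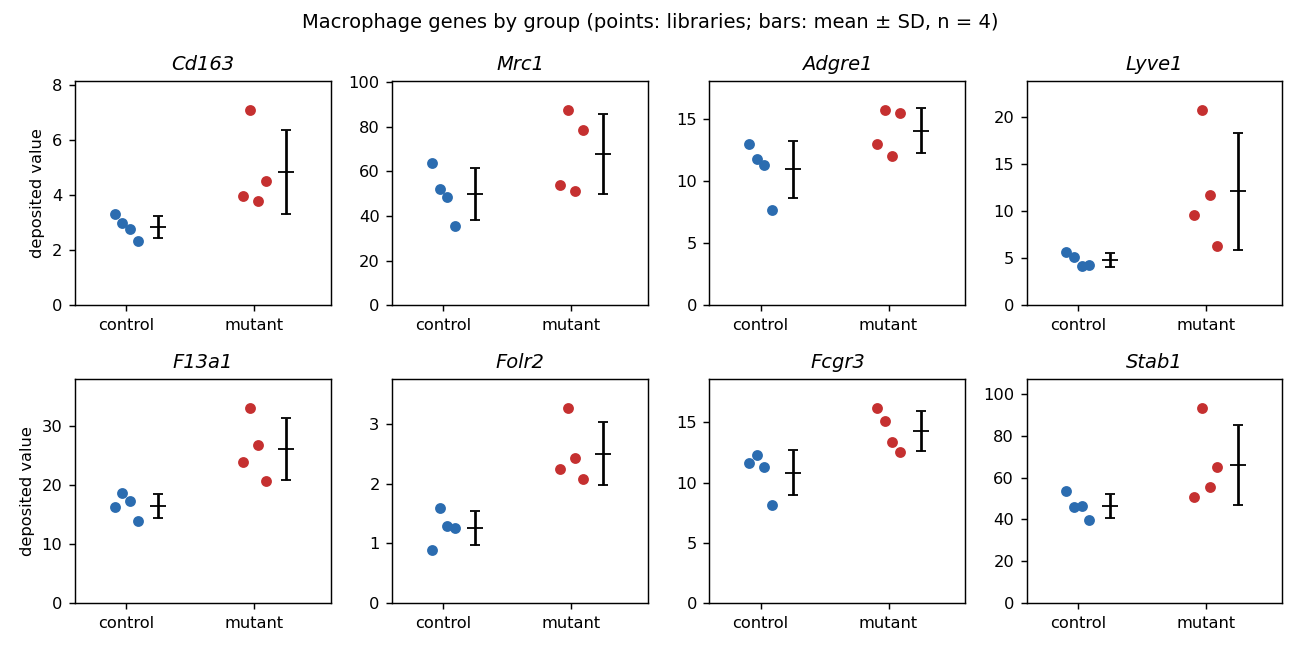
Deposited values of 8 macrophage genes by library, control in blue and mutant in red, with the group mean and SD (n = 4) as black bars; Cd163, Mrc1 and Adgre1 are members and the other 5 were picked from the wider macrophage list after their values were seen. Groups do not overlap for Cd163, Lyve1, F13a1, Folr2 and Fcgr3, the last 4 being the only separated genes among the 24 of the wider list. No gene shown passed an adjusted p of 0.05.

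A wider list of 24 macrophage genes gave values beside those of the members. Limma called 0 of the 24 at an adjusted p under 0.05, and 6 were higher and 0 lower at an unadjusted one, beside 8.27% and 4.87% of all genes. The 0 became 1 in 2 alternatives, Folr2 without the mean-variance trend (adjusted p = 0.0421) and Lyve1 without mutant 4 (adjusted p = 0.0374). Fold changes were above 0 for 23 of the 24, with a median of 0.18. The folate receptor Folr2 was at 0.882, 1.59, 1.29 and 1.26 in controls 1 to 4 and 2.24, 3.27, 2.44 and 2.08 in mutants 1 to 4, with a fold change of 0.63 (SE 0.14, 95% interval 0.33 to 0.94, adjusted p = 0.0513). The transglutaminase F13a1 was at 16.3, 18.7, 17.3 and 13.9 in controls 1 to 4 and 23.9, 33.1, 26.9 and 20.8 in mutants 1 to 4, with a fold change of 0.62 (SE 0.14, 95% interval 0.30 to 0.94, adjusted p = 0.0679). Both are genes of tissue-resident macrophages, and for each the 4 mutant values lay above the 4 control values. Lyve1 and Fcgr3, named here after their values were seen, were also separated, at 4.14 to 5.61 in control and 6.31 to 20.7 in mutant libraries and at 8.14 to 12.3 in control and 12.5 to 16.2 in mutant libraries. The groups were thus separated for 4 of the 24 genes, all higher in mutant libraries, beside 5.76% of all genes in this direction. Stab1 and Cd33, the other 2 at an unadjusted p under 0.05, overlapped, at 39.7 to 53.7 in control and 50.9 to 93.4 in mutant libraries and at 4.97 to 7.37 in control and 7.22 to 9.42 in mutant libraries. The summed markers of neutrophils were at 9.61 to 16.3 in control and 7.67 to 35.3 in mutant libraries and those of lymphocytes at 6.02 to 7.91 in control and 7.28 to 9.32 in mutant libraries. Among the lymphocyte markers the B cell gene Cd79b, named here after its values were seen, was at 1.43 to 2.44 in control and 2.52 to 4.41 in mutant libraries, without overlap and highest in mutant 2, with a fold change of 0.65 (adjusted p = 0.0904) and an adjusted p of 0.0308 without mutant 1. Their part in the macrophage levels was not tested.

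Class II antigen presentation gave the call in the set. H2-Ab1, the beta chain of the I-A class II molecule, was at 2.59, 3.10, 2.79 and 3.03 in controls 1 to 4 and 11.01, 7.43, 6.95 and 7.69 in mutants 1 to 4. All mutant values lay above all control values, and mutant 1 was the highest. The mean was 2.87 ± 0.233 (SD, n = 4) in control and 8.27 ± 1.85 (SD, n = 4) in mutant libraries, and the fold change was 1.24 (SE 0.14, 95% interval 0.94 to 1.54, adjusted p = 0.00313) from 148 to 595 estimated reads per library. The call held in all 16 alternative analyses, with fold changes of 0.74 to 1.47 and adjusted p of 0.0016 to 0.0336. The exact permutation p was 0.0286, the smallest the design allows.

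The partner genes of H2-Ab1 did not share this pattern. H2-Aa, the alpha chain that pairs with it, was at 0.573, 1.14, 1.08 and 0.658 in controls 1 to 4 and 5.93, 0.546, 0.806 and 0.465 in mutants 1 to 4, so that mutant 1 alone stood high and the other mutant libraries lay within or below the control range (exact permutation p = 0.886). Cd74, the invariant chain that escorts class II molecules, was at 2.12, 3.03, 2.72 and 1.70 in controls 1 to 4 and 10.96, 1.61, 2.22 and 1.68 in mutants 1 to 4, again with mutant 1 alone high. Its fold change was 0.27 (SE 0.44, 95% interval -0.71 to 1.26, adjusted p = 0.890), and without mutant 1 it was -0.25. The ratio of H2-Ab1 to H2-Aa was 4.52, 2.72, 2.57 and 4.60 in controls 1 to 4 and 1.86, 13.6, 8.61 and 16.5 in mutants 1 to 4, lowest of all in mutant 1 and above every control in the other 3 mutant libraries. The 2 chains therefore did not change in proportion across the libraries. Ctss, a protease that trims the invariant chain and the member of this role with the highest value, was at 32.1, 33.7, 30.7 and 21.6 in controls 1 to 4 and 47.99, 26.5, 33.3 and 29.8 in mutants 1 to 4, with a fold change of 0.20 (SE 0.19, 95% interval -0.23 to 0.63, adjusted p = 0.787). Without mutant 1 that of Ctss was 0.03, and without control 4 it was 0.06.

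Of 4 other class II genes, 3 were tested and limma called 0 at an adjusted or an unadjusted p under 0.05. H2-Eb1, the beta chain of the I-E molecule, was at 0.625, 1.46, 1.20 and 1.13 in controls 1 to 4 and 3.93, 0.804, 1.32 and 0.880 in mutants 1 to 4, high in mutant 1 as H2-Aa was. H2-DMa and H2-DMb1, chains of the molecule that loads peptides, had fold changes of 0.29 (adjusted p = 0.448) and 0.40 (adjusted p = 0.505). Ciita, the activator of class II transcription, was below the limit for testing, at 0.138 to 0.168 in control and 0.0758 to 0.720 in mutant libraries. H2-Ab1 lies on chromosome 17 (34263209 to 34269419, plus strand, in the coordinates of the table, build mm10), and its annotated start in GENCODE release 21 is at 34257689, upstream of the start given in the table. The deposited value is a single number per gene and does not show which exons the reads came from.

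**Figure D5:**
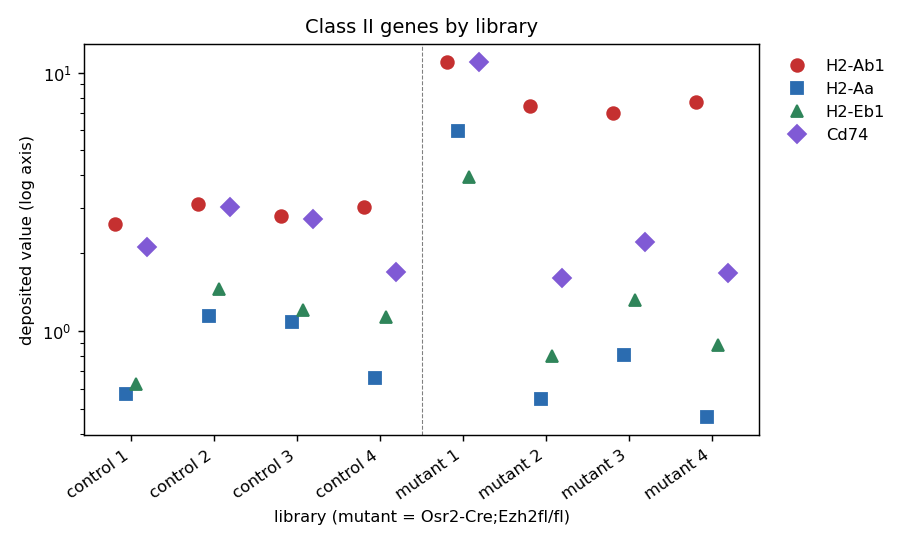
Deposited values of H2-Ab1, H2-Aa, H2-Eb1 and Cd74 in each of the 8 libraries on a log axis, with a dashed line between the groups. H2-Ab1 is at least 6.95 in all 4 mutant libraries and at most 3.10 in control libraries, whereas the other 3 genes stand high in mutant 1 only.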

How the data were processed

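RNA-seq values of molar mesenchyme at PN day 3 were analysed in 8 libraries, 4 per group, grouped by their labels. By the study's methods the authors aligned reads with TopHat 2.0.8 to mm10 and used RPKM, and the submitters' processing notes name CASAVA 1.8.2, STAR 2.5.3a and Partek. The methods mention 3 pairs of samples, but all 8 libraries were used. The deposited values were read as a signal, because they hold no length factor. The values below 20 reads were whole multiples of the smallest value of a library for 62.4% (within 0.02), so no test for counts was run. Reads were estimated as the value divided by that smallest value, minus 1. Whether counting used the strand is not given in the sources used here, and 4 members (Cx3cr1, Csf1r, Nfatc1 and Acp5) overlap a gene on the opposite strand and 7 a gene on the same strand.

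The 14854 genes whose value reached 1 in 4 or more libraries, of 20926, entered a test on log2(value + 1) with limma 3.58.1 under R 4.3.3 (eBayes with trend), two-sided, without a replicate block, with Benjamini-Hochberg adjustment over all of them. The model was tested on simulated data. Values per kilobase used merged exon lengths of GENCODE mouse release 21. The members and lists were chosen with earlier results of these data known. Values in every library are given for ligands and receptors, members at an unadjusted p under 0.05 and the highest member of each other role. Of the other lists, the text names genes called, the 2 with the smallest p and the most abundant, and others as chosen after their values were seen; 1 gene that this rule names is not reported here. Counts and fits were repeated with pseudocounts of 0.1 and 5, without the filter, with other scalings, without the trend, with a replicate block, with an enamel covariate and without each library in turn. Plots were drawn with matplotlib 3.10.9.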

Additional observations from a re-analysis of the deposited data

Results flagged for a closer look

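Each of the 36 members was examined in both groups for a library standing far from the other 3 by Dixon's criterion, which chance meets in about 1 of 20 groups, and 5 of the 72 groups met it. Laptm5 was at 38.3 in control 2 and at 23.5 to 24.9 in the other libraries of that group. H2-Aa was at 5.93 in mutant 1 and at 0.465 to 0.806 in the other libraries of that group. Cd74 was at 10.96 in mutant 1 and at 1.61 to 2.22 in the other libraries of that group. Nfatc1 was at 25.3 in control 2 and at 17.1 to 17.5 in the other libraries of that group. Ocstamp was at 5.62 in control 2 and at 1.09 to 1.48 in the other libraries of that group. All 5 lay in control 2 or mutant 1, and both in mutant 1 are class II genes.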

How the results depend on the processing

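All 34 members tested stayed on the same side of an adjusted p of 0.05 in the 16 alternatives, with 1 member called higher and 0 lower in each, while 16 members, none of them called, changed the sign of their fold change in at least 1. At an unadjusted p under 0.05, the 2 members that were higher became 4 with the replicate block, and 3 under several alternatives, and ran from 2 to 6 when 1 library was left out, with 0 to 1 lower. Of 99 genes tested in the other lists, the 3 called higher (beside 1.56% of all genes) were 2 to 4 without 1 library, and the 1 called lower (Car2, beside 0.512%) was 0 with the replicate block and 0 to 3 without 1 library; these list counts were chosen after seeing the data. The block was not taken as a pairing, because libraries of the same number correlated at -0.34, -0.08, 0.22 and -0.43 and only 1 control matched its own number best. It left H2-Ab1 with an adjusted p of 0.0336, ended the calls of Pth1r (adjusted p = 0.125) and Car2 (adjusted p = 0.0595), moved the ratio test of Tnfsf11 to Tnfrsf11b to p = 0.375 (exact permutation, smallest possible 0.125), and lowered the calls over all genes from 232 to 64 higher and from 76 to 9 lower. Without 1 library those were 108 to 332 and 21 to 97. The ratio difference stayed below 0 throughout, at -0.90 to -0.13 without 1 library, -0.84 with a pseudocount of 0.1 and -0.90 with none. With median-of-ratios scaling 44.7% of all genes had a fold change above 0, beside 54.1%. Depth limits Calcr, at 7 to 31 estimated reads per library, while H2-Aa, at 32 to 312, was left out by the filter on values. The causes of these shifts were not tested.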

Other observations

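Signals that attract or sustain myeloid cells were read in 13 genes, of which 7 were tested and limma called 0 at an adjusted p under 0.05, with 1 higher and 2 lower at an unadjusted one. Over all genes tested 1.56% were higher and 0.512% lower at an adjusted p under 0.05, and 8.27% and 4.87% at an unadjusted one. The 0 became 1 without mutant 1, when Tgfb1 was called lower (adjusted p = 0.0369). Cxcl12, a chemokine of stromal cells that retains blood-lineage cells, was at 54.4 to 79.3 in control and 82.6 to 146 in mutant libraries, without overlap, and its log2 fold change was 0.56 (SE 0.18, 95% interval 0.15 to 0.97, adjusted p = 0.204). Tgfb1, a growth factor stored in bone and the most abundant of the 7 per kilobase (18.7 per kilobase), was at 97.5 to 109 in control and 80.7 to 95.7 in mutant libraries, also without overlap, with a fold change of -0.26 (SE 0.07, 95% interval -0.42 to -0.10, adjusted p = 0.122). The guidance protein Sema3a, a known inhibitor of osteoclast formation and named here after its values were seen, was at 33.6 to 43.7 in control and 29.9 to 35.2 in mutant libraries, with a fold change of -0.25 (adjusted p = 0.298).

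Among the cells that surround the myeloid cells, the summed endothelial markers were at 325 to 371 in control and 290.4 to 314 in mutant libraries, without overlap. Limma called 0 of the 5 endothelial genes at an adjusted p under 0.05, which became 1 without mutant 2 (Kdr, lower, adjusted p = 0.0355). At an unadjusted p under 0.05, 3 were lower, beside 4.87% of all genes. The groups were separated for 2 of the 5, both lower, beside 2.77% of all genes, and overlapped for Pecam1, Emcn and Tie1. The summed erythroid markers were at 259 to 457 in control and 303 to 699 in mutant libraries. Ibsp, the bone sialoprotein of bone-forming cells and attachment sites of osteoclasts, was at 82.1, 141, 119 and 114 in controls 1 to 4 and 498, 331, 396 and 437 in mutants 1 to 4, and its log2 fold change was 1.87 (SE 0.17, 95% interval 1.48 to 2.25, adjusted p = 0.00126). Lhx8, a transcription factor of the dental mesenchyme, was at 7.94 to 10.9 in control and 18.03 to 28.1 in mutant libraries, with a fold change of 1.17 (SE 0.14, 95% interval 0.84 to 1.50, adjusted p = 0.00509). The calls of Ibsp and Lhx8 were kept in all 16 alternatives. The odontoblast gene Dspp, named here after its values were seen, had a fold change of -1.13 (adjusted p = 0.256). Without mutant 3 it was called lower, at -1.56 (adjusted p = 0.0269).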
